A study of Homo sapiens with 15 samples.

Results

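An alternative 3′ splice site, or acceptor, is one of several points at which the same upstream exon can be joined to a downstream exon, so that a stretch of sequence at the front of that exon is either kept or removed with the intron. The sites described here are alternative acceptors outside the closest tandem class, in which both forms were in use in control cells. A site was taken when its alternative stretch was over 3 nucleotides, when at least 10 reads informed it in all 15 libraries, and when its mean usage over the 8 control libraries was 5 to 95. Usage is given as PSI, the percentage of an event's informative reads that joined that acceptor. Of 721551 splicing events listed, 171733 were alternative 3′ splice sites, 92613 of these had a stretch over 3 nucleotides, and 10390 of those reached the read minimum. A total of 6494 were used below 5 and 3473 above 95, which left 423 sites in 342 events of 317 genes. Just inside the limits stood sites of METTL17 at a mean control PSI of 5.07 and of U2SURP at 94.97, and just outside them FBXL15 at 4.94 and ZFAND2A at 95.01. Control PSI chose the sites and is given below as a description only.

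The libraries came from HEK-293 cells, a human embryonic kidney line, either untreated (the controls) or harvested 24 h after transfection with a GEMIN5 expression plasmid by Lipofectamine LTX. The controls carried neither plasmid nor transfection reagent, so the plasmid's product and the act of transfection cannot be told apart. RNA was taken from the cytoplasmic lysate, called Input, and from polysome fractions 8 to 12 of a sucrose gradient of 10 to 50%, with cycloheximide at 0.1 mg/mL present in every lysate. Input was sequenced from 4 control and 3 GEMIN5 samples, and polysomes from 4 samples of each, and each group is named by its fraction and its cells, as in Input control or Polysome GEMIN5. Nothing in the labels states whether replicates were separate cultures, so the p-values measure the spread between these libraries, which may be technical.

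An acceptor is recognised in steps. SF1 binds the branch point, U2AF2 binds the pyrimidine-rich stretch that follows it, and U2AF1 binds the AG that ends the intron, after which the U2 snRNP with its SF3A and SF3B subunits takes over the branch point. In the second catalytic step SLU7, PRPF18 and CDC40 take part in the choice of the AG that is cut. GEMIN5 recognises small nuclear RNAs for the SMN complex, which loads them with Sm proteins to make the spliceosome's snRNPs, and it also binds ribosomes. A change of acceptor by a number of bases that is not a multiple of 3 shifts the reading frame and often brings in an early stop codon, and mRNAs with an early stop codon are removed by nonsense-mediated decay when they are translated.

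The competing acceptors of the sites that the comparisons turn on are shown from RNA sequences of the GENCODE 29 annotation of GRCh38, written as DNA from 5′ to 3′. Capitals mark the AG that ends the intron at an acceptor. In the first 4 genes the stretch begins 23 bases before the upstream acceptor, so that both AGs are seen, and it ends with 10 bases of the exon that both forms share. In the other 6 genes only the downstream AG is seen: for COPS3, NTMT1 and WASHC1 the letters run from the first base kept by the upstream acceptor, and for DXO, EBP and MECR they begin 20 bases before the downstream acceptor. They lie in coding sequence in all 10 genes.
UROD (chr1:45012834-45012916, plus strand, sites 50 bases apart): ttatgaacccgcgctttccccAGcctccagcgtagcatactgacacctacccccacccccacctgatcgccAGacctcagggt
PCNP (chr3:101579767-101579851, plus strand, sites 52 bases apart): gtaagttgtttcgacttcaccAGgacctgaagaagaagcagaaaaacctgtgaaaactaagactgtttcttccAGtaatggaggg
SPCS2 (chr11:74969588-74969649, plus strand, sites 29 bases apart): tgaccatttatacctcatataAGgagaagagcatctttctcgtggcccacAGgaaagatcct
TMEM141 (chr9:136791603-136791720, plus strand, sites 85 bases apart): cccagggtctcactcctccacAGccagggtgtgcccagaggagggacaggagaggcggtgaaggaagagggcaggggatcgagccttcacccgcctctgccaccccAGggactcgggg
COPS3 (chr17:17276155-17276183, minus strand, sites 19 bases apart): tgttgttcctgttttccAGggcaaatgac
NTMT1 (chr9:129634054-129634067, plus strand, sites 4 bases apart): gaAGgcccgaacaa
WASHC1 (chr9:18470-18492, minus strand, sites 13 bases apart): gatctcccagcAGgtagagcaga
DXO (chr6:31971572-31971601, minus strand, sites 100 bases apart): agcaccttctctgcccacAGaccctgccct
EBP (chrX:48523903-48523932, plus strand, sites 224 bases apart): gaccacatggctgttgtcAGgtcgtgctgc
MECR (chr1:29216676-29216705, minus strand, sites 127 bases apart): ccgtttggctttgtgcttAGactcaagaac

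The main competitor of a site, the most used other acceptor of its event, could be placed for 418 of the 423 sites, which formed 354 pairs. The other 5 sites lay in RPS15, RPS25, RPS6 and HAX1. A pair's sites were a median of 28.5 bases apart, with a range of 2 to 469. The label describes sites other than those 3 bases apart, but in 37 cases the main competitor lay within 3 bases, because stretches in the table are measured from the innermost acceptor of the event and not from the main competitor. In 158 cases the event had 2 acceptors and in 265 it had 3 or more, up to 12, so reads of sites in 1 event are shared and their PSI values mirror each other. The site was the upstream acceptor of its pair 349 times and the downstream one 69 times. This follows largely from the rule: the innermost acceptor has no stretch and cannot enter, so in events of 2 acceptors the site is always upstream. GENCODE placed 280 sites in coding sequence, 89 in a 5′ UTR, 13 in a 3′ UTR and 34 in non-coding transcripts only. An annotated exon began at 365 of the sites.

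Almost every acceptor ended in AG, and the base before it was most often C. Among downstream sites with sequence, 382 of 387 ended in AG, as did 181 of 182 upstream sites. In 4 pairs a site ended otherwise: the downstream site of CRYZL1 and of TCTN1 ended in AC, both sites of NR2C2AP did, and the downstream site of TM2D1 ended in AT. AC is the known end of some introns cut by the minor spliceosome. Over 326 pairs with sequence, the base before the downstream AG was C in 254 (77.9%), T in 42, A in 24 and G in 6. The downstream site's median share of the pair's reads in the controls was 50.7% after C, 27.5% after T, 22.5% after A and 7.07% after G, and it was the dominant site in none of the 6 pairs with G. A G at this place is known to weaken an acceptor. In the 10 pairs with a pyrimidine before the upstream AG and a purine before the downstream AG, the upstream site was dominant in 9. With the bases the other way round, in 20 pairs, the upstream site was still dominant in 11, and with a pyrimidine at both it was dominant in 59 of 124.

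Which acceptor was dominant varied with the distance between them. At 4 to 12 bases the upstream site was dominant in 57 of 79 pairs (72.2%), with a median upstream share of 78.5% of the pair's reads. At 13 to 50 bases it was dominant in 58 of 139 pairs (41.7%), with a median share of 32.1%. At 51 to 150 bases the median share was higher again, at 49.3%, with 46 of 94 pairs dominant upstream, and over 150 bases it was 11.4%, with 9 of 22, so the share did not fall steadily with distance. The pyrimidine content of both tracts could be read in 157 of the 354 pairs, those where an annotated exon covered these bases. In pairs under 20 bases apart, the downstream window overlaps the upstream tract and holds the upstream AG. That adds purines to the downstream window by construction, so the comparison partly follows from distance. Where the upstream site was dominant, in 80 pairs with sequence, the 20 bases before it held a median of 72.5% pyrimidines against 65% before the downstream site, and the upstream tract was the richer in 55 pairs and the poorer in 13. Where the downstream site was dominant, in 77 pairs, the medians were 70% and 70%, with the upstream tract richer in 31 and poorer in 40. Further AGs lay between the paired sites in most distant pairs: there was none between them in 66 of 72 pairs at 4 to 12 bases, in 59 of 127 at 13 to 50 bases and in 0 of 21 over 150 bases. These shares are descriptions of control cells, and the sites were taken because both forms were in use there.

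**Figure D1:**
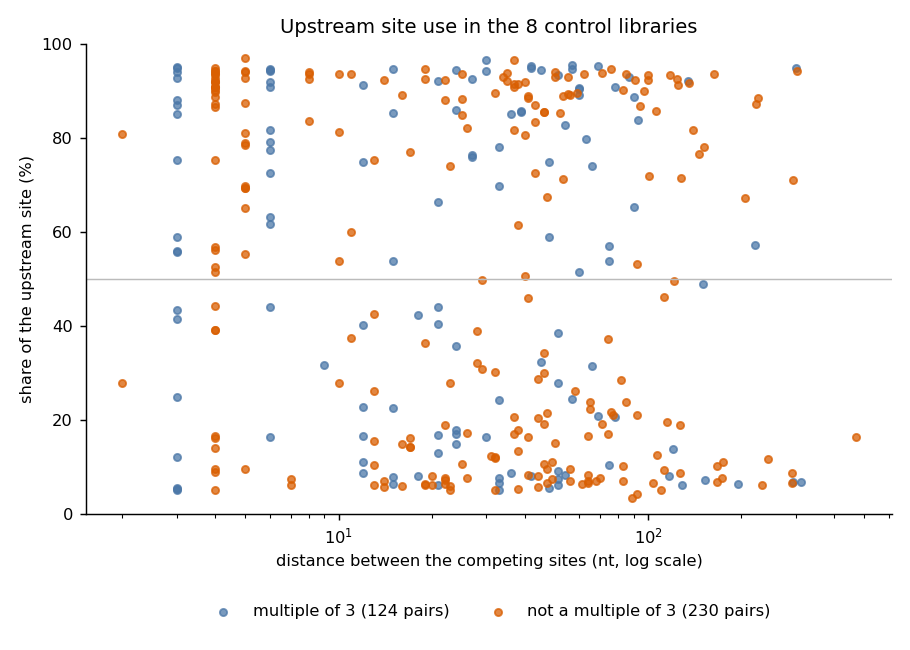
Share of a pair's reads that joined the upstream acceptor in the control libraries (y axis, percent) against the distance between the acceptors (x axis, nucleotides, log scale), 1 point per pair, coloured by whether the distance is a multiple of 3. Median shares were 78.5% for the 79 pairs at 4 to 12 nucleotides and 32.1% for the 139 pairs at 13 to 50 nucleotides.

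The sites differed widely in depth and in how well their libraries agreed. The median site had 60 reads per library, with a range of site medians from 15 to 3703, and 281 of 423 sites had 20 or more reads in all libraries. The SD of PSI between replicates had a median of 3.69 points in Input control, 4.19 in Input GEMIN5, 3.98 in Polysome control and 3.93 in Polysome GEMIN5. The pooled within-group SD was over 10 points for 39 sites and under 2 points for 44. In 24 cases the exon itself was used by under 25% of its donor's reads in at least 1 library, so PSI there describes a minor exon.

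Facts of the libraries that touch these comparisons concern composition. GEMIN5 mRNA, in CPM on library sizes scaled by TMM (as for the other genes given below), was at 13.9 ± 1.71 in the 4 Input controls and rose to 1427 ± 112 in the 3 Input GEMIN5 libraries; in polysomes it was at 5.79 ± 1.26 and 924 ± 187 (SD, n = 4 each). Libraries held 11191417 to 18407933 gene counts. Ribosomal protein genes took 50.4 to 54.3% of the counts in Input GEMIN5, 31.0 to 32.2% in Input control and 18.1 to 23.4% in polysomes. HEK-293 markers were present in every library (7 of 7, except 6 of 7 in Input GEMIN5 replicate 1). All 14 liver markers of a fixed list had counts in the Polysome control libraries and in Input control replicates 3 and 4, where they summed to 89.3 to 156.5 CPM of the unscaled totals, against at most 3.02 in the others. Blood and immune markers of a fixed list summed to 12.8 to 18.5 CPM in Polysome control and to 4.68 to 7.49 in all other libraries. Results that rest on Input control replicates 3 and 4 are therefore given also without them. Every Polysome control library held the liver markers, so comparisons with that group could not be given in this way. The part of liver or blood RNA in any result was not tested.

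GEMIN5 against control in Input asks which acceptors changed with the transfection in the cytoplasm. A total of 16 sites changed, in 12 genes, 6 with higher PSI (4.3% of all events tested) and 10 with lower PSI (5.9% of all events) in Input GEMIN5. They lay in NDUFV3, WASHC1, DXO, UROD, EBP, SPCS2, PCNP, TMEM141, NTMT1, COPS3, DPH5 and CSNK1E, and none of these is among the splicing factor genes of the lists used. The test was limma on the log2 odds of a read joining the site, fitted to all 15 libraries and 12697 events of all types, with Benjamini-Hochberg adjustment over all of them. The 16 are 3.78% of the sites, against 10.2% of all events tested, 8.58% of events of all types with a mean control PSI of 5 to 95 and 3.3% of such 3′ splice sites, so they were not called more often than splicing events at large. By the unadjusted p, 53 sites (12.5%) were under 0.05, against 25.6% of all events. Group ranges did not overlap for 70 sites (16.5%), against 15.9% of all events, and 9 sites (2.13%) differed by 15 points or more with a gap of 5 or more between the groups, against 2.95%. In all 16 the main competitor lay at a distance that is not a multiple of 3, as it did for 261 of the 418 placed sites.

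The largest difference was in NDUFV3, a subunit of mitochondrial complex I. Its upstream acceptor (position 42903182 of chromosome 21, with the competitor at 42903486) was used at PSI 91.5, 94.2, 88.9 and 95 in the 4 Input control libraries and at 38.9, 40.7 and 28.6 in the 3 Input GEMIN5 libraries. All controls lay far above all GEMIN5 libraries, and the log2 odds fell by 4.18 (SE 0.55, limma adjusted p = 0.000603). The exon that holds these acceptors was a minor one, used by as little as 0.75% of its donor's reads in a library, and the event had a median of 29 reads. In polysomes the means were 93.1 ± 6.51 in control and 80.9 ± 9.04 in GEMIN5 (SD, n = 4 each), and the ranges overlapped.

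The acceptors of WASHC1, a subunit of the WASH complex of endosomal actin assembly, lie 13 bases apart near the end of chromosome 9, in a gene family with near-identical copies, so its reads may be shared between copies. The upstream acceptor (18492) stood at 66.5, 71.1, 67.7 and 65.1 in Input control and at 38.5, 28.7 and 36.7 in Input GEMIN5. The ranges were more than 25 points apart, and the log2 odds fell by 1.95 (SE 0.31, limma adjusted p = 0.00175). The downstream acceptor (18479), which takes most of the other reads, went from a mean of 29.2 to 59.2 (adjusted p = 0.00223). In polysomes the upstream site averaged 79.3 in control and 66.6 in GEMIN5, with every GEMIN5 library below every control by at least 1.77 points, but the limma adjusted p was 0.759.

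DXO removes incomplete caps from mRNA. Its upstream acceptor (31971681 of chromosome 6, 100 bases before the competitor) stood at 82.2, 82.3, 81.3 and 87.2 in Input control and at 63.4, 47.9 and 51.4 in Input GEMIN5. Controls and GEMIN5 libraries lay apart, and the log2 odds fell by 2.01 (SE 0.45, limma adjusted p = 0.0124). The competitor, whose AG is shown above, rose from a mean of 7.07 to 22.3 (adjusted p = 0.0147). Without Input GEMIN5 replicate 2 the adjusted p values of the pair were 0.0534 and 0.0666, and without Input control replicates 3 and 4 they were 0.0834 and 0.0599; without Input GEMIN5 replicate 3 the competitor's was 0.0519. The upstream site averaged 87.3 and 85.8 in the polysomes of control and GEMIN5 cells.

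UROD is the uroporphyrinogen decarboxylase of haem synthesis. Its downstream acceptor (45012907 of chromosome 1), the one preceded by the run of C shown above, stood at 88.7, 89.0, 79.1 and 85.6 in Input control and at 63.8, 57.1 and 58.4 in Input GEMIN5. The lowest control was 15 points above the highest GEMIN5 library, and the log2 odds fell by 2.01 (SE 0.43, limma adjusted p = 0.00942). The upstream acceptor 50 bases before it rose from a mean of 14.4 to 40.2 (adjusted p = 0.00768). In polysomes the downstream site averaged 84.0 in control and 84.9 in GEMIN5.

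EBP, a sterol isomerase of cholesterol synthesis, uses 3 of these acceptors. The most upstream one (48523699 of chromosome X) stood at 82.9, 81.3, 80.1 and 72.1 in Input control and at 49.5, 59.7 and 56.9 in Input GEMIN5. No GEMIN5 library reached the lowest control, and the log2 odds fell by 1.62 (SE 0.33, limma adjusted p = 0.0076). The acceptor 224 bases downstream stood at 5.03, 7.29, 9.94 and 8.38 in Input control and at 23.7, 17.5 and 19.7 in Input GEMIN5, an increase of 1.63 in log2 odds (adjusted p = 0.00723) with no overlap.

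In 3 further genes the upstream acceptor also lost reads to the downstream one. SPCS2, a subunit of signal peptidase, has acceptors 29 bases apart: its upstream acceptor stood at 48.0, 39.5, 20.8 and 38.9 in Input control and at 13.3, 15.2 and 11.8 in Input GEMIN5. The log2 odds fell by 1.78 (SE 0.41, limma adjusted p = 0.0139) on a median of 28 reads, and the lowest control was above every GEMIN5 library. TMEM141, a small membrane protein, had its upstream acceptor at 25.4, 22.5, 22.9 and 22.01 in Input control and at 13.6, 9.95 and 10.7 in Input GEMIN5. These groups were tight and apart, with a fall of 1.24 in log2 odds (SE 0.24, limma adjusted p = 0.00571) on a median of 462 reads. PCNP, a nuclear protein linked to the cell cycle, had its upstream acceptor at 74.8, 88.2, 78.1 and 77.0 in Input control and at 61.9, 65.5 and 57.1 in Input GEMIN5. Its groups did not overlap and the log2 odds fell by 1.33 (SE 0.38, limma adjusted p = 0.039), but that call was lost in 11 of 18 alternative settings, among them leaving out Input control replicate 2, 3 or 4 (adjusted p of 0.0999, 0.0624 and 0.0564) or Input GEMIN5 replicate 1, 2 or 3 (0.0777, 0.0676 and 0.119).

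In NTMT1 and COPS3 the upstream acceptor gained reads. NTMT1, an N-terminal methyltransferase of proteins, has acceptors 4 bases apart: the upstream one stood at 16.8, 16.1, 14.8 and 13.6 in Input control and at 26.8, 30.6 and 26.7 in Input GEMIN5. The groups were about 10 points apart and the log2 odds were higher by 1.09 (SE 0.23, limma adjusted p = 0.00897), with an adjusted p of 0.0823 without Input control replicates 3 and 4. COPS3, a subunit of the COP9 signalosome, had its upstream acceptor at 7.39, 6.82, 3.21 and 3.08 in Input control and at 11.3, 16.9 and 17.5 in Input GEMIN5. It was higher in every GEMIN5 library by 1.82 in log2 odds (SE 0.42, limma adjusted p = 0.0138). The COPS3 call was lost without Input GEMIN5 replicate 2 (adjusted p = 0.0523) or 3 (0.0505), and without Input control replicates 3 and 4, the 2 lowest, the log2 odds difference was 1.23 (adjusted p = 0.138). The upstream acceptors of DPH5, of diphthamide synthesis, and CSNK1E, a casein kinase, also fell, from means of 88.0 to 73.3 (adjusted p = 0.0201) and of 16.02 to 6.59 (adjusted p = 0.0386).

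**Figure D2:**
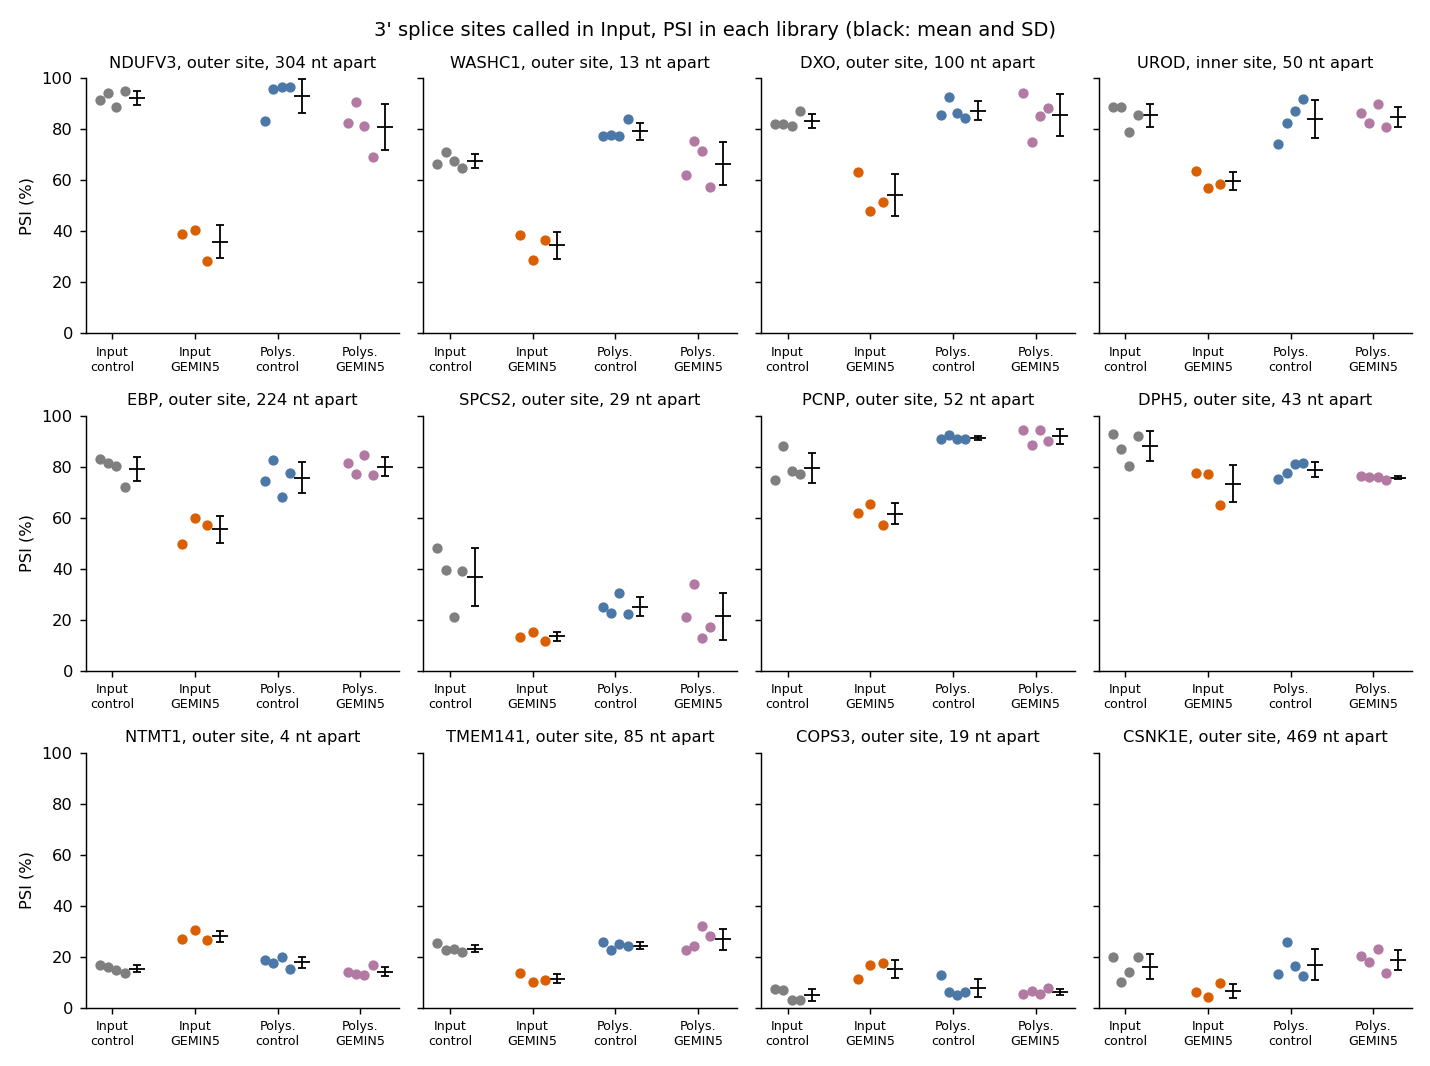
PSI (y axis, percent) in each of the 15 libraries for the acceptor with the larger difference in each of the 12 genes called in Input (outer, upstream site; inner, downstream site), 1 panel per gene, with the mean and SD in black. In NDUFV3 the 3 Input GEMIN5 libraries lie between 28.6 and 40.7 and the 4 Input control libraries between 88.9 and 95, with the polysome libraries of both kinds of cell at 69.0 or above.

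The genes that hold these acceptors differed in mRNA amount in both directions in the same Input libraries. By edgeR with its default scaling, log2 fold changes were 2.02 for NDUFV3, 1.16 for WASHC1, 1.03 for NTMT1, 0.79 for DXO and 0.37 for UROD, and −0.56 for PCNP and −1.41 for CSNK1E. COPS3, SPCS2 and DPH5 did not pass at 0.05. The gene table lists EBP at 0 in every library and TMEM141 at no more than 0.328 CPM, although their acceptors had medians of 182 and 462 reads in the event table, so no gene-level value is given for either and the reason was not tested. With library size alone the median gene stood at −1.29, so the smaller positive values rest on the scaling. How far a site lies from the 3′ end of its mRNA also moved with the amount of reads. Over 375 sites with an annotated acceptor in a coding transcript, the median log2 change in event reads, scaled to the library's gene counts, was −0.13 in Input for 68 sites within 500 bases of the end, −0.31 for 103 sites 500 to 1000 bases from it, −1.10 for 122 at 1000 to 2000 and −0.68 for 82 beyond. Calls in Input numbered 0, 4, 11 and 1 in these classes, and in polysomes the medians were 0.05, −0.03, 0.09 and −0.06. The part of these differences in the PSI results was not tested.

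In polysomes, GEMIN5 against control asks whether the acceptors of mRNA under translation changed. None of the 423 sites passed limma's adjusted p of 0.05, in this or any of 18 alternative settings, against 1 event (0.00788%) of all tested. By the unadjusted p, 22 sites (5.2%) were under 0.05, against 5.7% of all events. Group ranges did not overlap for 18 sites (4.26%), against 2.5% of all events, and no site differed by 15 points with a gap of 5 between the groups (0.0551% of all events). On simulated reads for all 12697 events, the same test recovered 68.3% of changes of 30 points, 33.3% of 20 points and 2.5% of 10 points. The simulated spread between libraries was set alike for every event and not taken from the data, so these shares hold for that setting. The median absolute PSI difference was 2.16 points in polysomes and 2.96 points in Input.

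The sites called in Input differed by fewer PSI points in polysomes. Over all 423 sites, the GEMIN5 difference in Input and that in polysomes, which share no library, correlated at Pearson r = 0.0456 and Spearman rho = −0.0144, a description across sites that share reads within events. The 16 sites called in Input had a median absolute difference of 20.7 points there and 2.78 points in polysomes, where 6 of 16 had the same sign. They were chosen by their Input difference, so the larger median in Input follows at least partly from the choice. The interaction of GEMIN5 and fraction, tested directly by limma, passed for 4 sites in 3 genes (0.946%, against 1.94% of all events). EBP's downstream site, at means of 14.8 in Polysome control and 8.60 in Polysome GEMIN5, differed by −2.47 in log2 odds between fractions (SE 0.45, adjusted p = 0.0168), and its upstream site by 1.97 (SE 0.45, adjusted p = 0.0402). NTMT1 differed by −1.49 (SE 0.32, adjusted p = 0.0301), and TMEM141 by 1.41 (SE 0.33, adjusted p = 0.0402). Of these, only EBP's downstream site passed in all 25 alternatives. The calls of the other 3 were lost without Input control replicates 3 and 4, at adjusted p of 0.0796 for EBP's upstream site, 0.131 for NTMT1 and 0.128 for TMEM141, and in 10 to 15 of 25 alternatives in all.

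**Figure D3:**
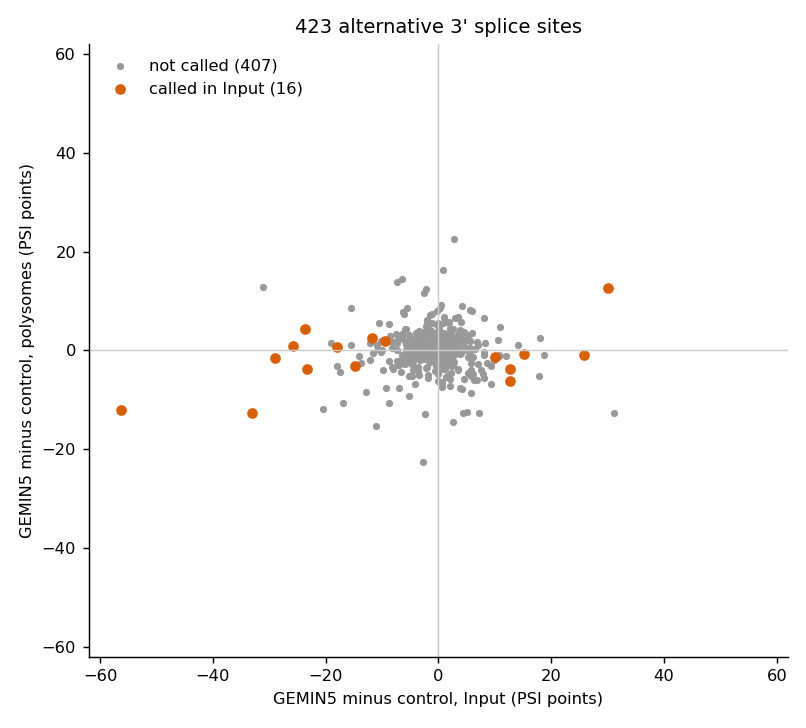
Difference of mean PSI between GEMIN5 and control cells in polysomes (y axis, points) against the same difference in Input (x axis, points), 1 point per site, with the sites called in Input marked. The 16 marked sites, chosen by their Input difference, spread along the Input axis, with a median absolute difference of 20.7 points. They spread less along the polysome axis, with a median of 2.78 points.

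Polysomes against Input asks which acceptors differ between mRNA under translation and the whole cytoplasmic pool. In control cells no site passed limma's adjusted p of 0.05 (11 events, 0.0866%, of all tested), and 38 sites (8.98%) were under 0.05 by the unadjusted p, against 8.16% of all events. With precision weights 1 site passed, and with no filter on the PSI range 6 did. In GEMIN5 cells 29 sites in 23 genes passed, 17 with higher PSI in polysomes (6.39% of all events) and 12 with lower PSI (5.27%). That is 6.86% of the sites, against 11.7% of all events. These GEMIN5 calls use the same Input GEMIN5 libraries as the comparison above, so the values of both are given side by side and are not independent.

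Sites of NDUFV3, WASHC1, DXO, UROD, EBP, PCNP, TMEM141, NTMT1, COPS3 and CSNK1E were again among them. The strongest of the others was RPSA, a protein of the small ribosomal subunit with many processed pseudogenes. Its upstream acceptor (39407603 of chromosome 3), in the 5′ UTR and 18 bases from the competitor, stood at 52.4, 59.2 and 66.1 in Input GEMIN5 and at 13.04, 30.9, 15.8 and 9.09 in Polysome GEMIN5. The fractions did not overlap, and the log2 odds fell by 2.87 (SE 0.48, limma adjusted p = 0.0019). In control cells RPSA stood at 46.8, 47.6, 57.7 and 67.7 in Input and at 18.4, 41.7, 30.8 and 28.6 in polysomes, apart again but with an adjusted p of 0.281. It was the 1 site that differed by 15 points with a gap of 5 in control cells, as 0.252% of all events did.

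MECR, an enzyme of mitochondrial fatty acid synthesis, had the same order in both kinds of cell. Its upstream acceptor stood at 29.8, 33.0 and 30.6 in Input GEMIN5 and at 9.64, 8.40, 13.8 and 10.7 in Polysome GEMIN5. The log2 odds fell by 1.90 (SE 0.36, limma adjusted p = 0.00426). In control cells Input stood at 29.8, 23.5, 27.6 and 23.1 and polysomes at 6.06, 10.1, 20.6 and 11.3, also without overlap, with an adjusted p of 0.155. PCNP's upstream acceptor was higher in the polysomes of GEMIN5 cells, at 94.3, 88.6, 94.5 and 90.1 against 61.9, 65.5 and 57.1 in Input, a difference of 2.87 in log2 odds (SE 0.38, limma adjusted p = 0.000411). Control polysomes stood as high, at 91.0, 92.5, 90.8 and 90.9, above all 4 Input controls, with an adjusted p of 0.205.

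Sites of other genes also passed between the fractions of GEMIN5 cells. LSM7, a subunit of the LSm ring of mRNA decay and of U6 snRNA, has acceptors 4 bases apart and is deeply covered (median 1620 reads). Its upstream acceptor stood at 85.9, 82.9 and 84.8 in Input GEMIN5 and at 92.0, 91.5, 94.3 and 92.3 in polysomes (limma adjusted p = 0.028). NCBP2, the small subunit of the nuclear cap-binding complex, averaged 68.9 in Input and 80.0 in polysomes (adjusted p = 0.0329), and TRMU, a tRNA thiouridylase of mitochondria, 70.6 and 87.9 (adjusted p = 0.0294). SLC35B1, an ATP carrier of the endoplasmic reticulum, averaged 73.9 and 87.7 (adjusted p = 0.00906). MRPS33, NFKBIB, PUSL1 and SLC35B4 also had higher PSI in polysomes, while EMC9 and DDT had lower PSI. The DDT exon was used by as little as 0.46% of its donor's reads in a library, a near copy of the gene (DDTL) lies beside it, and its call (adjusted p = 0.0226) was lost without Polysome GEMIN5 replicate 4 (0.0507) or any of the 3 Input GEMIN5 replicates (0.0566 to 0.0606).

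Sites were then grouped by reading frame. Among coding pairs, the form with fewer control reads is called the less used form, a grouping chosen after values of these data were seen. The control libraries that chose this form are also its baseline, so the choice by itself can set the control values low. Use of the form was read from a single site of each pair, as its PSI or, where it was the more used site, as 100 minus its PSI. In events of 3 or more acceptors the latter counts every other acceptor, also those at other distances. In 147 pairs whose acceptors are not a multiple of 3 apart, the mean of this value per library was 14.16 to 16.07 in Input control, 17.64 to 18.83 in Input GEMIN5, 14.88 to 15.58 in Polysome control and 14.43 to 15.08 in Polysome GEMIN5. By this mean Input GEMIN5 stood above all 12 other libraries, by 3.02 points over Input control and 3.39 points over Polysome GEMIN5 in the group means. The medians over pairs overlapped, at 12.31 to 14.65 in Input GEMIN5 and 10.13 to 12.73 in Input control. The median pair differed by 1.30 points between these groups. The less used form was higher in Input GEMIN5 than in Input control in 95 pairs and lower in 52, and it was lower in polysomes than in Input of GEMIN5 cells in 100 and higher in 47. In 89 pairs a multiple of 3 apart the group means were 15.9, 15.9, 15.9 and 16.3, all ranges overlapped, and the form was higher in Input GEMIN5 in 46 pairs and lower in 42. Without the genes that hold a called site, the frame-shifting pairs were higher in 73 and lower in 49 of 122. Without Input control replicates 3 and 4 they were higher in 89 and lower in 58. The difference between frame classes was not tested, and no p is given for these means.

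In 26 pairs, GENCODE has one acceptor in a coding transcript and the other in a transcript marked for nonsense-mediated decay and in no coding one. Either acceptor may also occur in further non-coding transcripts. Where the value was read from the coding acceptor, as in TRMU, it is the share of all other acceptors of the event. The decay acceptor averaged 13.9 ± 1.25 (SD, n = 4) in Input control, 19.0 ± 3.17 (SD, n = 3) in Input GEMIN5, 15.0 ± 1.31 (SD, n = 4) in Polysome control and 13.8 ± 1.78 (SD, n = 4) in Polysome GEMIN5. The library means ranged from 12.24 to 15.22 in Input control and from 17.08 to 22.68 in Input GEMIN5, without overlap. The medians over pairs did overlap, at 8.475 to 12.89 in Input control and at 9.6, 14.43 and 16.59 in Input GEMIN5. PSI of the decay acceptor was higher in Input GEMIN5 in 18 pairs and lower in 7, and it was lower in polysomes than in Input of GEMIN5 cells in 19 and higher in 7. Of the 26, PCNP and COPS3 were called in Input, and those 2 with DUSP12 and TRMU between the fractions of GEMIN5 cells. Without Input control replicates 3 and 4 the counts were 14 and 11, and the median difference in Input went from 4.60 to 0.72 points.

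**Figure D4:**
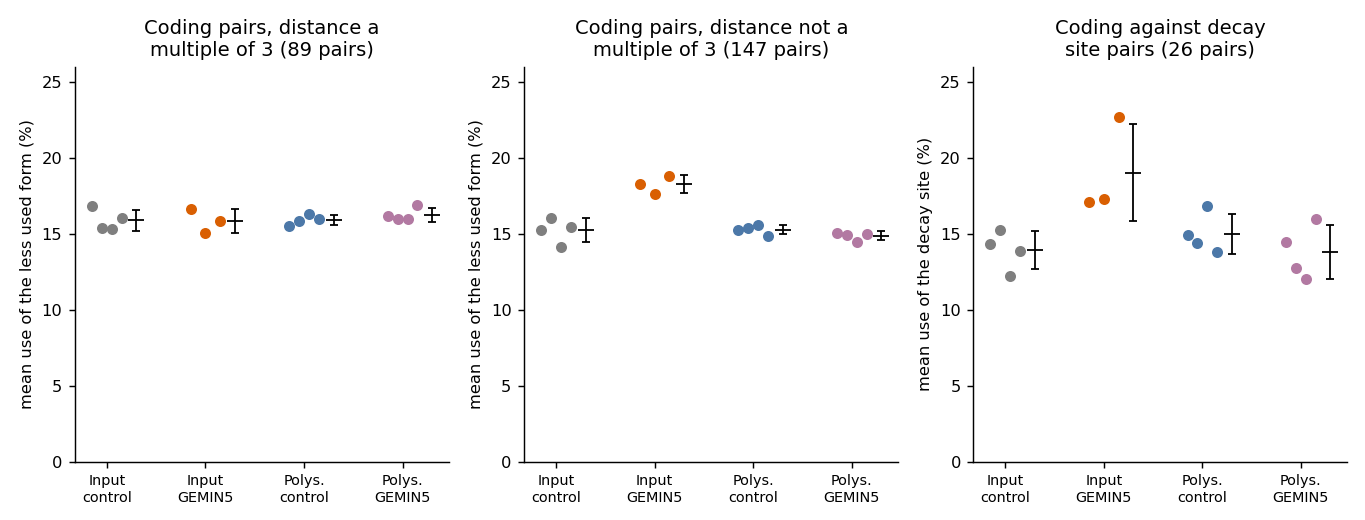
Mean PSI (y axis, percent) of the less used acceptor form in each library, for coding pairs a multiple of 3 apart (left) and not a multiple of 3 apart (middle), and of the decay acceptor of the 26 coding and decay pairs (right), with the mean and SD in black. Input GEMIN5 libraries lie among the others on the left and at 17.64 to 18.83, above all other libraries, in the middle. Where a value was read from the more used or the coding acceptor, it is the share of all other acceptors of the event.

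In GEMIN5 against control, no site in the splicing factor genes of the lists used passed in the main fit in either fraction. Nor did any of the 4 most deeply read sites. Not passing is not a measure of size. U2SURP differed by −1.55 in log2 odds in Input and by 1.45 in polysomes, on a median of 38 reads. In Input the sites of SRSF5, SNRNP70, SRSF10 and HNRNPAB differed by −0.28 (SRSF10) to 0.60 (SRSF5). None of the sites in SRSF5, SNRNP70, SRSF10, U2SURP or HNRNPAB passed in either fraction. SRSF5, an SR protein, came nearest: its upstream acceptor, 4 bases from the other in the 5′ UTR, stood at 77.98, 75.1, 72.5 and 69.7 in Input control and at 82.6, 81.6 and 81.1 in Input GEMIN5, apart by 3.1 points with a limma adjusted p of 0.166. The 4 most deeply read sites were those of BEX3, SNRPB, TOMM6 and DYNLL1, with medians of 2445 to 3703 reads. BEX3, a small adaptor protein, stood at 21.2, 21.9, 21.5 and 22.4 in Input control and at 19.7, 16.7 and 15.3 in Input GEMIN5 (adjusted p = 0.239). SNRPB, the Sm protein B that GEMIN5's complex loads onto snRNAs, stood at 74.1, 75.7, 77.0 and 76.6 and at 70.9, 70.4 and 72.0 (adjusted p = 0.351). Both were lower in every Input GEMIN5 library but by under 5 points, and with weights for read depth both passed (adjusted p = 0.0281 and 0.00426).

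The genes that recognise and cut acceptors were measured as mRNA in the same cells, from a list of 35, of which 32 could be tested. Of the others, DDX39B and CHERP were listed at 0 in every library and U2AF1L4 at no more than 0.111 CPM. Whether this reflects expression or the counting was not tested. In Input 16 of the 32 tested passed edgeR's quasi-likelihood test (adjusted p under 0.05), against 51.5% of all genes. The list was thus called no more often than genes at large. Of the 16, 4 were higher and 12 lower in GEMIN5 cells, and calls by direction were not counted over all genes. The median log2 fold change was −0.25 over the list and −0.013 over all genes. Lower were HNRNPC, which competes with U2AF2 for uridine tracts (839.6 ± 40.4 to 270.5 ± 49.4 CPM, SD, n = 4 and 3, log2 fold change −1.63), U2AF2 (262.1 ± 16.5 to 101.3 ± 3.55, −1.37) and SLU7 (30.4 ± 3.06 to 9.78 ± 1.38, −1.63). SF1 (−1.02), RBM17 (−0.99), CDC40, SF3A2, U2SURP, ZRSR2, HTATSF1, SF3B4 and PTBP1 were lower too. Higher were SF3B5 (486.7 ± 26.7 to 1703 ± 239, 1.81), SF3B6 (1.12), PRPF8 (0.95) and PHF5A (0.75). U2AF1 did not pass (log2 fold change −0.15, adjusted p = 0.348).

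These directions depend on the scaling. With library size alone 31 of 32 passed, 1 higher and 30 lower, while the median gene stood at −1.29: SF3B5 stayed higher at 0.50, and SF3B6 (−0.18), PRPF8 (−0.35) and PHF5A (−0.53) turned negative. In polysomes none of the 32 passed (3 by the unadjusted p, 0 by DESeq2, against 0.402% of all genes), and 2 did without Polysome control replicate 1.

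**Figure D5:**
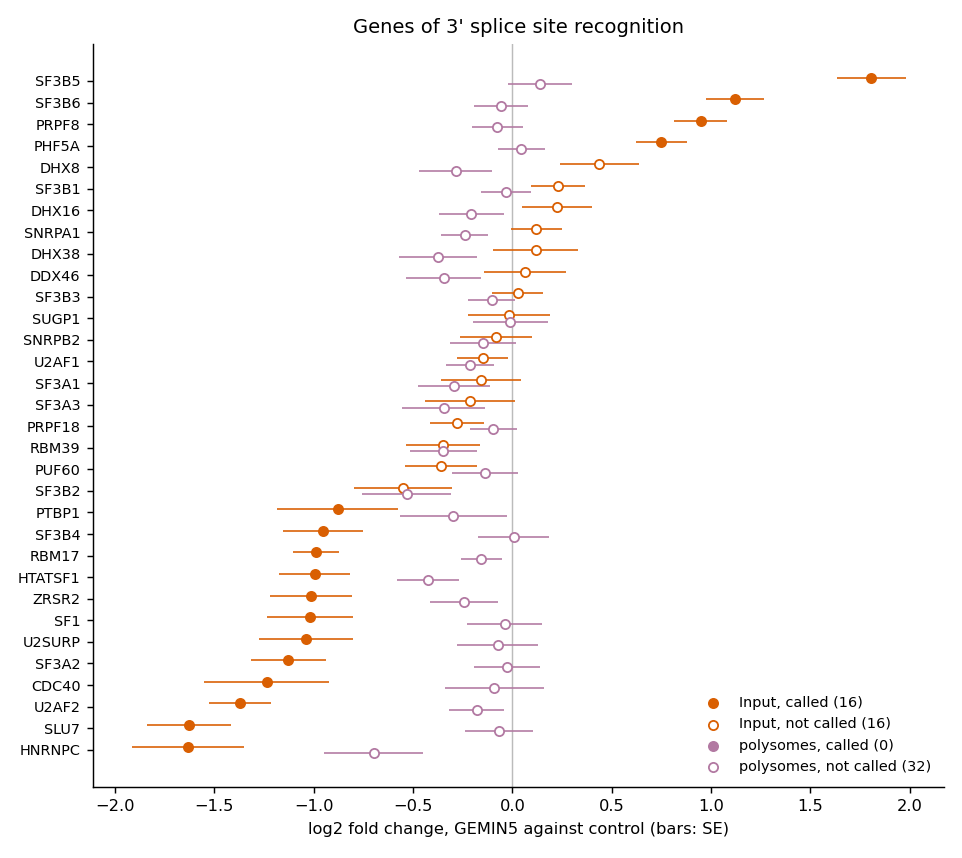
Log2 fold change of GEMIN5 against control (x axis) for the 32 tested genes of 3′ splice site recognition (y axis), in Input and in polysomes, with bars of 1 SE; Input values range from −1.63 for HNRNPC and SLU7 to 1.81 for SF3B5, and polysome values lie between −0.70 for HNRNPC and 0.14 for SF3B5.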

How the data were processed

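Percent spliced in was deposited by the authors as a percent per event and library, beside the read numbers behind it (corrected inclusion and exclusion reads, and the share of the donor's reads that used the exon), in a table on hg38 in the layout of vast-tools, per the file headers. The authors also deposited a table of whole-number counts per gene; the submitters' processing notes name STAR 2.7.10a, featureCounts and GRCh38, while no source used here gives the strand setting of the counting or the version of the event caller.

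The sites and gene lists were chosen with earlier results of these data known. Sites were placed with GENCODE 29. Event reads were compared as log2((inclusion + 0.5)/(exclusion + 0.5)) with limma 3.58.1 (R 4.3.3, intensity trend, robust), 1 model over 4 groups and 15 libraries, on 12697 events with 10 or more reads in every library, leaving out events whose PSI stayed under 5 or over 95 in all 15; p was adjusted by Benjamini-Hochberg over all of them. Genes were tested with edgeR 4.0.16 (TMM, quasi-likelihood) and, as an alternative, DESeq2 1.42.0. Simulated reads had known changes in a small part of the 12697 events. Their spread between libraries was set alike for every event and not taken from the data. The Input comparison recovered 63.5% of 30-point, 21.1% of 20-point and 2.5% of 10-point changes. Of its 75 calls over all events, 21 fell on unchanged events, against 2 of 66 in polysomes. None of the unchanged sites of this set was called. Named sites were, in each comparison, up to 6 in each direction with the largest PSI difference among those called without overlapping ranges, those past 15 points with a gap of 5, up to 10 in splicing factor genes, and the 4 most deeply read; DPH5, CSNK1E, DUSP12, MRPS33, TRMU, EMC9, NFKBIB, NCBP2, SLC35B1, LSM7, PUSL1, SLC35B4, DDX27 and EIF2D fall outside this rule and were named after their values were seen. Over events, same-numbered replicates did not deviate together (correlations of −0.024 to 0.052), and no pairing was used. Over genes the correlations were −0.0038 to 0.08 in Input. In polysomes they were −0.1, −0.135, 0.585 and −0.657 for numbers 1 to 4, so the gene data there hold structure between libraries that has no steady sign. Alternatives changed the added number, the filters, the weights, the libraries in the fit, the scale, and left out each library in turn.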

Additional observations from a re-analysis of the deposited data

Results flagged for a closer look

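In groups of 4 libraries, 1 library stood apart from the other 3 by Dixon's 95% criterion in 10 of the 87 groups examined; chance gives about 1 in 20. In Polysome control they were COPS3 replicate 1 (PSI 12.95, the others 5.14 to 6.30), NDUFV3 replicate 1 (83.33, the others 95.83 to 96.62), WASHC1's upstream site in replicate 4 (84.21, the others 77.42 to 77.94) and PCNP replicate 2 (92.51, the others 90.77 to 90.95). In Input control they were DXO's upstream site in replicate 4 (87.18, the others 81.33 to 82.32) and DYNLL1 replicate 2 (6.41, the others 5.6 to 5.69). In Polysome GEMIN5 they were DDT replicate 4 (26.47, the others 43.48 to 46.51), SRSF5 replicate 4 (78.18, the others 69.32 to 70.77), SNRPB replicate 2 (73.9, the others 74.72 to 74.85) and TOMM6 replicate 1 (19.3, the others 16.86 to 17.19).

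The GEMIN5 effect differed between polysomes and Input, by limma's interaction test with adjustment over all events, for EBP's downstream site (−2.465 in log2 odds, SE 0.45, adjusted p = 0.0168) and upstream site (1.972, SE 0.45, adjusted p = 0.0402), for NTMT1 (−1.485, SE 0.32, adjusted p = 0.0301) and for TMEM141 (1.413, SE 0.33, adjusted p = 0.0402).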

How the results depend on the processing

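Sites called in Input (16) numbered 28 with 1 added to each read number, 40 with no PSI filter, 25 with precision weights and 10 with only the groups compared, and 15 to 16 with a library left out. With the added number scaled to the reads 14 sites were called, while calls over all events went from 1295 to 556, and without Input control replicates 3 and 4 there were 13, of which 10 were the same sites. The interaction calls (4) numbered 9 with 1 added, 21 with no PSI filter, 10 on the PSI scale, 1 with the replicate block, 1 without Input control replicates 3 and 4, and 1 to 4 with a library left out. Polysomes against Input gave 6 with no PSI filter and 1 with precision weights in control cells (0 to 0 with a library left out), and in GEMIN5 cells, from 29, 44 with no PSI filter, 15 with only the groups compared and 20 to 30 with a library left out. In the fits with the replicate number as a block, the pairing gave 20 sites in Input, 0 in polysomes, 0 and 27 between fractions in control and GEMIN5 cells, and 16 and 0 factor genes. The factor genes called in Input (16) were 31 with library size only and 16 to 21 with a library left out, and in polysomes 0 to 2.

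With a library left out, median PSI differences ranged from −0.31 to 0.33 for sites of a length that is a multiple of 3 in Input, and for the others from −0.018 to 0.27 in polysomes and −0.26 to 0.36 between fractions of control cells. In the mean over pairs, the less used form of frame-shifting coding pairs differed by 2.66 to 3.32 points in Input and −3.70 to −3.10 between fractions of GEMIN5 cells. The decay site differed by 3.27 to 6.07 and −6.17 to −3.37. Of 853 alternative values of named sites, 779 kept their direction and side of the threshold, 67 lost the call, 2 gained it and 5 reversed: SNRNP70 in Input without Input GEMIN5 replicate 1 (0.16) or 3 (0.056), within −0.61 to 0.16 over the left-out libraries, SRSF10 in Input without Input GEMIN5 replicate 1 (0.65, within −0.98 to 0.65), and TOMM6 in polysomes without Polysome control replicate 1 (−0.0018) or Polysome GEMIN5 replicate 1 (−0.018, within −0.018 to 0.076), none of them called. The cause of these changes was not tested. The median site had 60 reads per library, which limits what could be detected. Over all 12697 simulated events the Input test recovered 2.5% of changes of 10 points. That share rests on a simulated spread set alike for every event, and the part of depth in it was not tested.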

Other observations

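Some sites varied widely between replicates. DDX27, an RNA helicase of ribosome formation, has acceptors 4 bases apart, and its upstream one was at PSI 100 in most libraries but at 38.6 to 68.5 in 5 of them, spread over Input control, Input GEMIN5 and Polysome GEMIN5, on a median of 29 reads. EIF2D, an initiation factor, has acceptors 3 bases apart. Its downstream one ran from 0 to 61.3 over the 15 libraries and its upstream one from 38.5 to 100, on a median of 167 reads. In Input the groups of this pair did not overlap, and the upstream one was 31.2 points higher in GEMIN5 with a limma adjusted p of 0.073.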
